A study of Mus musculus with 2 samples.

Results

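Radial glial cells (RGCs) that held no transcript of the proliferation genes Mki67 and Top2a were examined in single-cell transcriptomes of the mouse dorsal telencephalon at embryonic day (E) 16.5. They made up 357 of the 16348 cells that passed the filters on depth and mitochondrial content, 175 of 8139 in wild-type (WT) replicate 1 and 182 of 8209 in WT replicate 6. A cell was taken as a member when at least 3 of the 6 radial glia genes Hes5, Sox9, Tnc, Slc1a3, Aldoc and Ednrb had a unique molecular identifier (UMI), the tag that marks a single captured mRNA molecule. None of Eomes, Dlx1, Dlx2, Gad2, Pdgfra and Cldn5 was allowed a UMI, and neither were Mki67 and Top2a. Cells passed with 1500 to 60000 UMIs, of which under 10% came from mitochondrial (mt-) genes. The share of members was 2.15% in replicate 1 (exact binomial 95% interval 1.85 to 2.49) and 2.22% in replicate 6 (1.91 to 2.56), and the intervals cover counting error only.

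The series was built to study Dot1l, a histone methyltransferase gene, through its deletion by Cre expressed from the Emx1 locus. Both libraries are labelled WT, and knockout embryos were not analysed here. The labels do not say whether the WT embryos carried Cre or a floxed allele. The tissue is labelled brain hemispheres, and cells of the dorsal telencephalon were released with papain, and no sort by a marker is described. Nothing in the labels states that the libraries came from separate embryos, but the female-specific transcript Xist had 1336 and 2 UMIs in members of replicates 1 and 6.

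Radial glia are the stem cells of the developing cortex. Their cell bodies lie along the ventricle, their basal fibres guide migrating neurons to the cortical surface, and Notch signals from neighbouring cells keep them undifferentiated. They give rise to neurons directly or through intermediate progenitor cells (IPCs), which switch on Eomes, and late in gestation they turn to the production of glia.

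The genes of the gate are described without a test because the gate fixes them. Levels are given as CPM, the counts per 1000000 UMIs, summed over the cells of a class in one library, replicate 1 first. Slc1a3, a glutamate transporter of astroglia, was found in 97.1 and 97.8% of members, at 902 and 905 CPM, against 116 and 122 CPM in all other passing cells. Tnc, an extracellular matrix glycoprotein, reached 997 and 1125 CPM. Hes5, a transcriptional repressor switched on by Notch, stood at 278 and 244 CPM and was detected in 69.1 and 62.1% of members. Sox9, a transcription factor of neural stem cells and glia, had 262 and 206 CPM. Aldoc, a glycolytic aldolase of astroglia, had 350 and 387 CPM, and the endothelin receptor gene Ednrb had 296 and 262 CPM. For each of the 6 genes both libraries lay above both libraries of the remaining cells, which is what the gate asks for.

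Hes5 is the gate gene switched on by Notch, and the 250 bases before its annotated start are shown for that reason. The window is chr4:154960673-154960922 on the plus strand of GRCm38.p6, the build called mm10 in the labels, with the sequence taken from RefSeq. Capitals mark the letters TGGGAA or, on the other strand, TTCCCA, the core recognised by the Notch effector RBPJ:
Hes5: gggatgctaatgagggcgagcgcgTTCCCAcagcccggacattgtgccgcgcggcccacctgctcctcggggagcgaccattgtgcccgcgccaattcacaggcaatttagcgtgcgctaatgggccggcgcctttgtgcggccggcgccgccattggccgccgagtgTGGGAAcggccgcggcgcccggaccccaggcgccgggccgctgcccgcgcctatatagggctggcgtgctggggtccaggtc
The 2 matches begin 226 and 82 bases before the start. Of 32851 promoter windows of this length, 21.6% held at least 1 match and 2.77% held 2 or more. Of the 16 Notch pathway genes listed for comparison, 12 had a window, and 3 of them (Rbpj, Lfng and Hey2) held a match. These are matches of letters in a window, and binding was not measured.

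Members differed in how many of the 6 markers they showed. Of the 175 members of replicate 1, 42, 37, 51 and 45 had 3, 4, 5 and 6 markers, and of the 182 members of replicate 6 there were 54, 28, 51 and 49. All 6 markers occurred together in 94 cells, the most common combination. The number of markers went with depth, with Spearman's rho of 0.52 and 0.32 across members against UMIs per cell, so that a cell with few markers can be a shallow one. Just inside the threshold, cells with 3 markers held Fabp7, the brain fatty acid-binding protein of radial glia, at 3640 and 7402 CPM and the neuronal gene Stmn2 at 299 and 614 CPM. Just outside, cells with 2 markers that met the other conditions, 119 and 90 in number, had Fabp7 at 682 and 662 CPM and Stmn2 at 1402 and 1424 CPM. Across the threshold Fabp7 was higher and Stmn2 lower on the inner side in both libraries.

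**Figure D1:**
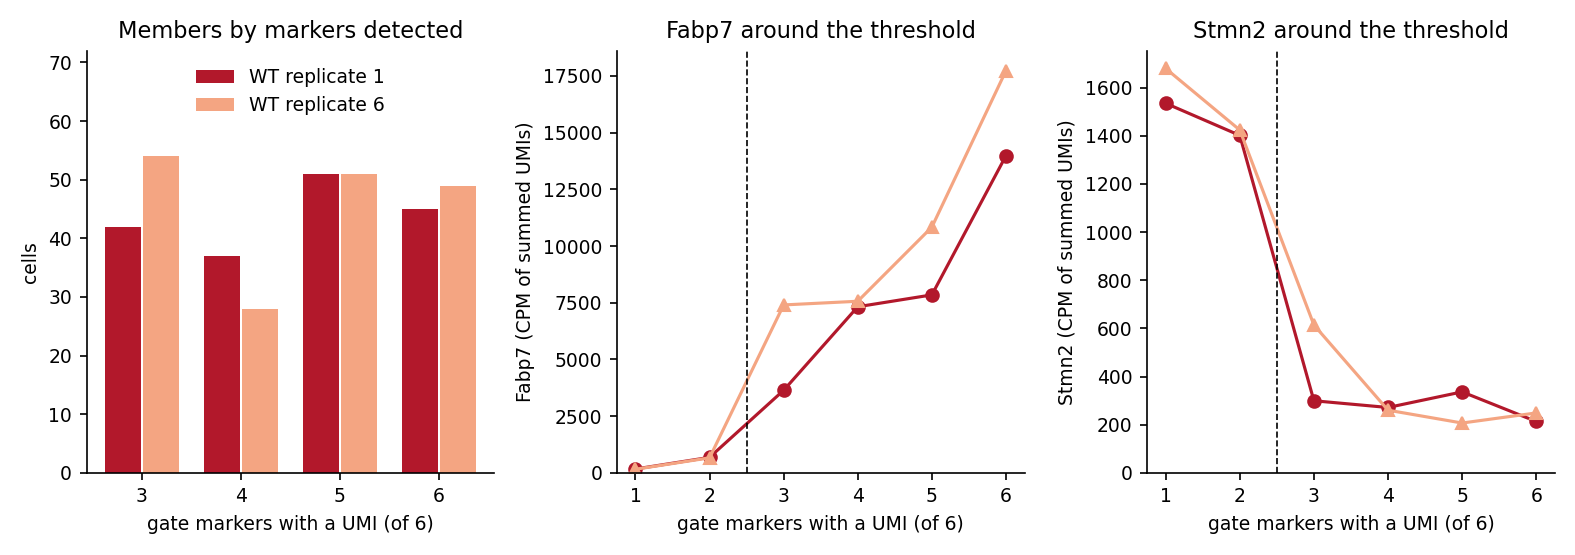
Left, number of members (y axis, cells) by the number of gate markers with a UMI (x axis), in WT replicate 1 (dark bars) and WT replicate 6 (light bars). Middle and right, Fabp7 and Stmn2 in CPM of summed UMIs (y axis) for cells with 1 to 6 markers that met the other conditions, with circles for replicate 1, triangles for replicate 6 and a dashed line at the threshold. Fabp7 goes from 682 and 662 CPM at 2 markers to 13982 and 17731 CPM at 6.

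Members had a median of 8147 and 8171 UMIs per cell and 3270 and 3274 genes, against 6905 and 6634 UMIs in all other passing cells. The libraries held 14136 and 13046 barcodes and 74930397 and 68964234 UMIs in all. They had 59 barcodes in common, 26 of which passed in both, but no barcode was a member in both and no pair had the same counts. Of the members, 12 and 11% had doublet scores in the range left out in one of the alternatives.

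Some members also held genes of other classes. At least 50% of the listed markers of another class were detected in 35 and 24 members, most often of excitatory neurons (31 and 19 members) and in a few cells of mural cells (3 and 1), oligodendrocyte precursors (0 and 4), microglia (1 and 2) or choroid plexus (1 and 2). Summed over the list, the 8 excitatory neuron markers had 879 and 953 CPM in members, 6147 and 6264 CPM in excitatory neurons and 980 and 884 CPM in microglia, a class that should lack them. Excitatory neurons were gated on Neurod6 and Neurod2, so that their gate bears on their level. Free RNA in the droplets was not measured separately, and 58.2 and 79.2% of the microglia had high doublet scores. The blood cell genes, 6 in number, summed to 3253 and 1865 CPM in members and 14180 and 20878 CPM in the remaining cells. Endothelial markers summed to 12.8 and 10.8 CPM and microglial markers to 53.8 and 44.7 CPM in members, with 3 of the 5 endothelial markers above 0 in each library. Their part in the results was not tested, and the comparisons were repeated without the members of mixed identity.

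The radial glia label was checked with 9 genes that the gate did not use, Pax6, Sox2, Nes, Vim, Fabp7, Hopx, Ttyh1, Mfge8 and Dbi, and all 9 were higher in members than in all other cells by edgeR's quasi-likelihood test. Members were compared with the rest over 18241 genes, on UMIs summed per library and class, so that each class entered with 2 sums. With a Benjamini-Hochberg adjusted p under 0.05, 35.2% of the genes tested were called, 16.4% as higher and 18.8% as lower in members. The 14 gate genes were kept out of the test. Since the gate picked cells by genes that go together with many others, these calls describe the gated cells and are no independent evidence for their class. The p-values measure the spread between 2 libraries only.

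Fabp7 was the most abundant of the radial fibre genes, at 9215 and 11891 CPM in members and 666 and 756 in the rest, which makes a log2 difference of 3.80 ± 0.15 (SE, adjusted p of 7.1e-06). Dbi, which encodes an acyl-CoA-binding protein, reached 5403 and 4609 CPM against 535 and 458. Vim, the intermediate filament of radial fibres, had 1383 and 1520.2 CPM against 237 and 242, and Nes, its partner filament in neural stem cells, 145 and 136 against 30.5 and 31.0. For each of these genes the members of both libraries lay above both sums of the other cells. After each cell had been thinned to 1500 UMIs, Fabp7 was seen in 89.7 and 91.8% of members, 28.6 and 24% of microglia and 20.5 and 19.6% of excitatory neurons. Both of these other classes were gated on fewer than 3 radial glia markers, which bears on their shares.

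All 24 genes of the radial fibre and astroglial list were higher in members, against the 16.4% of all genes called higher, and their median log2 difference was 2.57 beside -0.09 over all genes tested. Among genes of at least 100 CPM the greatest log2 difference was that of Aldh1l1, a folate enzyme used as an astrocyte marker, with 160 and 164 CPM in members and 8.55 and 7.32 CPM in the rest (4.26 ± 0.11, SE). Clu, a secreted chaperone of astrocytes, stood at 184 and 135 against 9.98 and 6.93 CPM, and Mlc1, a membrane protein of astrocyte endfeet, at 112 and 101 against 6.69 and 5.27. Genes better known from mature astrocytes were present at low levels. Aqp4, the astrocyte water channel, had 20.8 and 29.1 CPM and Gfap, the astrocyte filament, 5.38 and 8.80 CPM, which were 8 and 13 UMIs. The zinc-binding metallothionein Mt3 differed between libraries in each class shown, with 1884 and 1163 CPM in members, 1475 and 779.6 in cycling RGCs and 122 and 71.7 in all other cells.

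Further genes with large differences were Fgfbp3, which encodes a carrier of fibroblast growth factors, at 389 and 422 CPM against 24.6 and 30.6, and Ttyh1, a membrane protein of neural stem cells, at 284 and 306 against 23.2 and 23.2. Ano1, a calcium-activated chloride channel, had 134 and 155 CPM against 9.94 and 10.3. Ecrg4, Eepd1, Ankfn1 and Ccdc80 had log2 differences of 3.60, 3.55, 3.83 and 3.53, and each lay above 90 CPM in both libraries of members. The genes lowest in members relative to the rest included genes of interneurons and synapses. Dlx6os1, a noncoding RNA of the interneuron Dlx locus, had 11.4 and 2.71 CPM in members and 286 and 276 in the rest, and Adarb2, an interneuron gene, 16.8 and 10.8 against 449 and 422. With the gate applied to thinned cells, Adarb2 differed by -1.30 on the log2 scale and was not called (adjusted p = 0.329). Gria1, an AMPA receptor subunit, had 8.07 and 25.7 CPM against 256 and 266. Galntl6, Dpp10, Zfp804a, Lrrtm4 and Dlgap2 had log2 differences of -4.84, -4.79, -4.43, -3.39 and -3.31. Interneuron genes are lowered in members by the gate itself, which excludes cells with Dlx1, Dlx2 or Gad2.

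**Figure D2:**
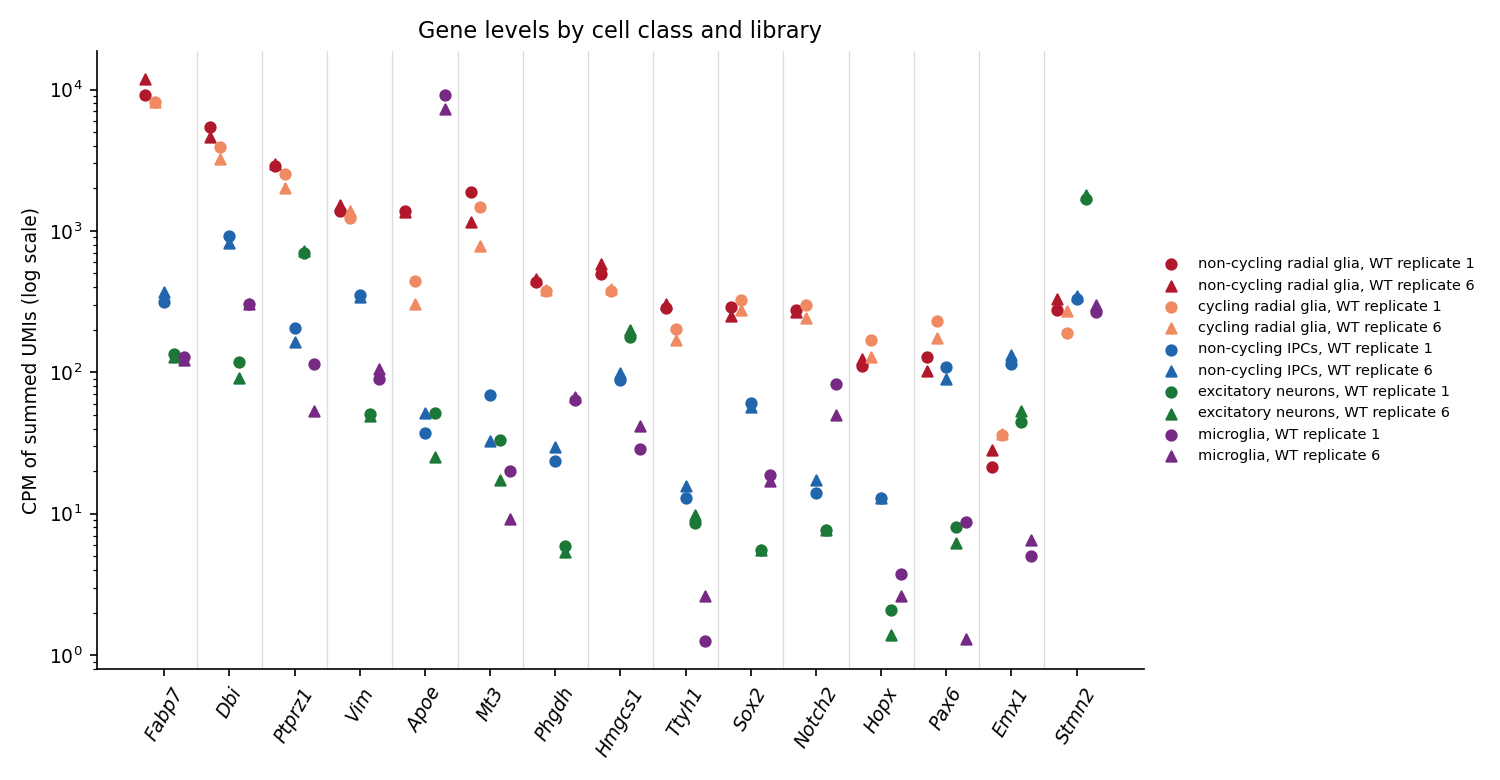
Level of 15 genes that the gate did not use (x axis) in CPM of summed UMIs (y axis, log scale), in members, cycling RGCs, non-cycling IPCs, excitatory neurons and microglia (colours), with circles for WT replicate 1 and triangles for WT replicate 6. Members and cycling RGCs lie close together for most genes, whereas Apoe stands at 1384 and 1368 CPM in members and 445 and 304 CPM in cycling RGCs.

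Among 20 transcription factors of radial glia and dorsal progenitors, 15 were higher and 4 lower in members than in the rest, with a median log2 difference of 1.58. Over all genes 16.4% were higher and 18.8% lower, and the 4 lower factors were near that share. Gli3, which transduces hedgehog signals and patterns the dorsal forebrain, had 554 and 497 CPM in members and 87.5 and 86.8 in the rest. Sox2, a factor of neural stem cells, stood at 289 and 249 against 85.0 and 82.7 CPM, and Pax6, which drives cortical neurogenesis, at 128 and 101 against 40.5 and 32.0. Sox3 had the greatest difference, at 32.3 and 41.9 against 5.10 and 5.91 CPM (2.66 ± 0.19, SE). The factors that were lower in members included Neurog2 at 19.5 and 25.0 against 53.9 and 55.7 CPM, Tcf4 at 1425 and 1491 against 2239.8 and 2350.4, and Emx1. Neurog2 is the proneural factor of excitatory neurons, and the gate, which excludes cells with Eomes, bears on it and on Emx1. Lhx2, at 156 and 162 against 146 and 159 CPM, did not pass the test (adjusted p = 0.79).

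Position along the dorsal to ventral axis was read from genes that the gate did not use directly. Its exclusion of cells with Dlx1, Dlx2 or Gad2 still bears on ventral genes. Its exclusion of cells with Eomes bears on dorsal genes that are high in IPCs, such as Emx1. The values below are therefore a description of the gated cells and no independent reading of position. Emx1, whose locus drives Cre in this series, had 21.5 and 28.4 CPM in members, 33.7 and 39.7 in all other cells and 115 and 132 in non-cycling IPCs. Its log2 difference from the rest was -0.65 ± 0.18 (SE, adjusted p of 0.027), and the adjusted p was 0.0522 without TMM scaling and 0.0585 once cells with ventral genes were left out. The related factor Emx2 was higher in members, at 43.7 and 48.7 against 19.4 and 20.7 CPM. At least 1 UMI of Emx1, Emx2, Neurog2 or Dmrta2 was found in 45.7 and 44.0% of members, against 17.6 and 8.33% of microglia. After thinning to 1500 UMIs these were 13.1 and 12.6% of members and 1.10 and 1.04% of microglia. Cycling RGCs were higher than members, at 70.5 and 79.4% (18.8 and 25.3% thinned), and so were non-cycling IPCs, at 93.7 and 93.4% (47.8 and 55.8% thinned). Excitatory neurons were close to members, at 49.2 and 49.5% (11.6 and 13.5% thinned). Any of the ventral genes Gsx2, Gsx1, Nkx2-1, Dlx5 and Sp9 was found in 11.4 and 11% of members, close to the 9.89 and 11.5% of microglia. Members lay above cycling RGCs (7.38 and 5.29%), non-cycling IPCs (7.84 and 3.99%) and excitatory neurons (4.95 and 4.72%). After thinning the shares were 2.29 and 1.65% of members, 1.34 and 1.18% of cycling RGCs and 2.35 and 1.33% of IPCs. Thinned excitatory neurons gave 0.825 and 0.926% and microglia 3.30 and 7.29%. Gsx2, a factor of lateral ganglionic eminence progenitors, had 8.74 and 8.12 CPM against 2.57 and 3.17 in the rest. The cortical part of the name therefore rests on dorsal genes that were seen in fewer than 50% of members in each library.

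Markers of other classes were counted by list in the test against the rest, where 16.4% of all genes were higher and 18.8% lower. The gate excludes cells with Eomes, Dlx1, Dlx2, Gad2, Pdgfra or Cldn5. It therefore bears on the IPC, interneuron, ganglionic eminence, oligodendrocyte precursor and endothelial lists, whose lower counts are description only. All 8 excitatory neuron markers, all 7 interneuron markers, the 5 endothelial, the 5 fibroblast and the 5 erythroid markers tested were lower in members, as were 4 of 6 microglial and 4 of 5 Cajal-Retzius markers. Of 8 IPC markers 5 were lower and 2 higher, and of 8 ganglionic eminence markers 3 were lower and 2 higher. Of 6 mural markers 1 was higher and 2 were lower, and of 5 oligodendrocyte precursor markers 1 was higher and 1 lower. Of 6 choroid plexus and ependymal markers 1 was higher, and of 5 cortical hem markers 3 were, with none lower in either list.

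A few members carried genes of other structures. Lmx1a and Rspo2 mark the cortical hem, the signalling centre at the medial edge of the cortex. Rspo2 had 68 UMIs in members of each library, from 6 and 3 cells, and Lmx1a had 21 in each, from 7 and 3 cells. Both were higher in members than in the rest, with log2 differences of 2.51 ± 0.14 and 3.67 ± 0.69 (SE). With the gate applied to thinned cells these fell to -0.82 and -1.75 and were no longer called. Of the mural markers, Pdgfrb was higher, at 67.2 and 44.7 CPM against 19.4 and 18.4, while Rgs5, a defining gene of mural cells, came from 1 cell for 80.0 and 87.3% of its UMIs.

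**Figure D3:**
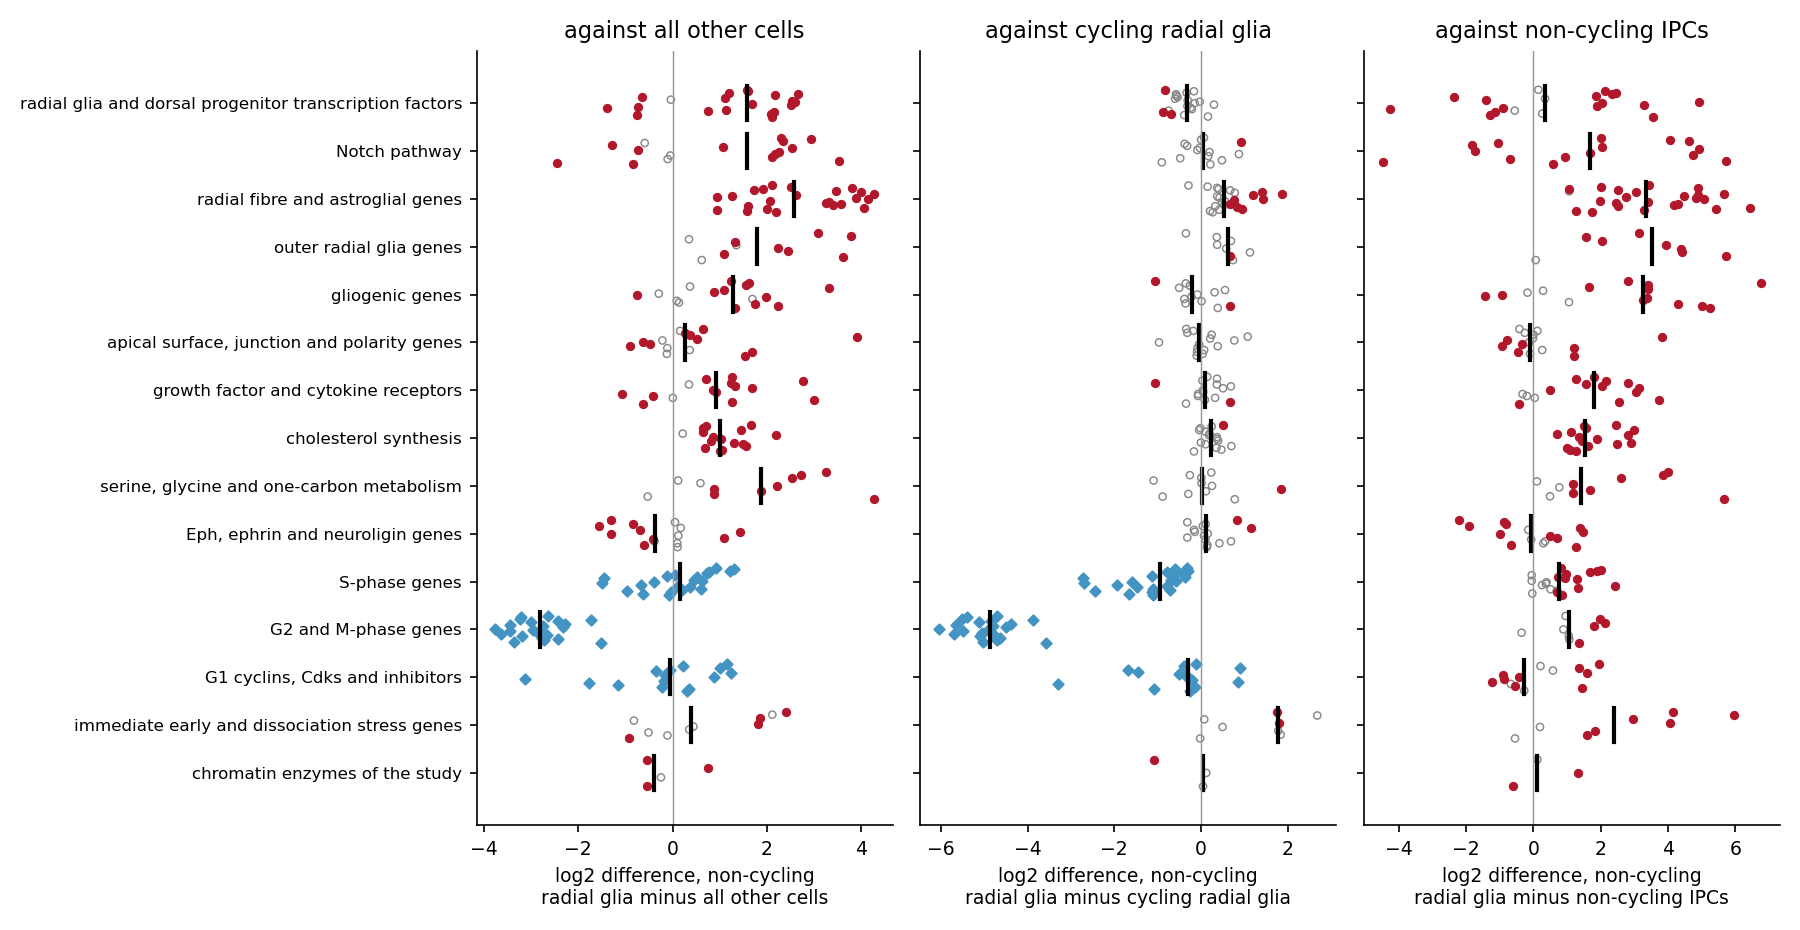
Log2 difference (x axis) of the genes of each list (y axis), with one point per tested gene and a vertical bar at the median, between members and all other cells (left), cycling RGCs (middle) and non-cycling IPCs (right). Filled red points passed an adjusted p of 0.05, open points did not, and blue diamonds mark cell-cycle genes shown without a test because the gate bears on them. Radial fibre and astroglial genes lie above 0 against all other cells and against IPCs, with medians of 2.57 and 3.35.

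Notch receptors were higher in members, whereas Mfng and Hes6 were lower. Of 16 genes of the pathway, 9 were higher and 4 lower in members than in the rest, against 16.4 and 18.8% of all genes. The median log2 difference was 1.58. The receptors were high, with Notch1 at 186 and 165 CPM against 33.5 and 33.9, Notch2 at 276 and 269 against 35.3 and 31.2 and Notch3 at 76.6 and 73.1 against 15.1 and 12.6. Lfng, which modifies Notch receptors with sugars, had 37.0 and 31.8 CPM against 2.90 and 2.68, and the target Hes1 74.6 and 60.2 against 12.1 and 9.93. The lower genes included another modifying enzyme, Mfng, at 6.72 and 4.06 CPM against 27.0 and 28.0, and Hes6, a Hes family member that opposes Hes1, at 41.7 and 62.2 against 76.3 and 85.6. The remaining lower genes were Dner and the ligand Dll3, with log2 differences of -0.84 and -1.29.

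Genes of outer radial glia, a basal stem cell type first defined in primates, were also listed. Of 10, 7 were higher and none lower by this test, against 16.4 and 18.8% of all genes. Ptprz1, a receptor phosphatase, had 2898 and 2973 CPM against 574 and 602, Hopx, a homeodomain protein, 111 and 124 against 14.1 and 11.9, and the lipid enzyme gene Acsbg1 77.3 and 73.7 against 5.93 and 5.65. Fam107a was rare, at 4.71 and 4.06 CPM or 7 and 6 UMIs. The 3 genes that did not pass were Lifr, Stat3 and Moxd1, with adjusted p of 0.162, 0.0972 and 0.105.

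Of 16 genes linked to the switch to glia, 10 were higher and 1 lower in members, against 16.4 and 18.8% of all genes. Bcan, which encodes brevican of the brain matrix, had 65.2 and 54.1 CPM against 5.49 and 5.78, and Id3, a target of bone morphogenetic proteins, 193 and 176 against 36.6 and 36.5. Egfr stood at 63.9 and 103 CPM against 32.4 and 33.7, and the oligodendrocyte lineage factors Olig1 at 22.9 and 33.2 against 8.81 and 8.37 CPM and Olig2 at 19.5 and 23.0 against 6.94 and 6.70. Of Olig1, 70.6 and 85.7% of the UMIs came from 5 cells in each library, and 0 and 4 members held at least 50% of the oligodendrocyte precursor markers. The nuclear factor I genes split: Nfia was higher, at 1339 and 1324 CPM against 668 and 688, and Nfix was lower, at 349.6 and 396 against 566 and 609.7. Nfib, with a log2 difference of -0.29 ± 0.11 (SE), did not pass (adjusted p = 0.0796), but it did with the library as a block (adjusted p = 0.000952).

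Most of the listed metabolic genes were higher in members, where 16.4% of all genes were higher and 18.8% lower. Of 16 genes of cholesterol synthesis and uptake, 15 were higher in members and none was lower, with a median log2 difference of 1.01. Hmgcs1, an early enzyme of the pathway, had 499 and 581 CPM against 153 and 167, and Idi1, which acts later, 167 and 193 against 35.5 and 38.5. Fdft1, squalene synthase, did not pass (adjusted p = 0.114). Of 11 genes of serine, glycine and one-carbon metabolism, 8 were higher. The genes of the serine synthesis enzymes Phgdh, Psat1 and Psph were among them. Phgdh had 438 and 456 CPM in members against 44.0 and 44.6 in the rest, Psat1 127 and 137 against 18.7 and 18.9, and Psph 114 and 133 against 20.2 and 20.2. Gldc, of the glycine cleavage system, had 31.6 and 54.8 CPM against 8.55 and 8.99, with the members of both libraries above both sums of the rest.

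Receptor and surface genes were mixed. Of 15 growth factor and cytokine receptor genes, 10 were higher and 3 lower in members. Fgfr3, a fibroblast growth factor receptor of astroglia, had 51.8 and 52.8 CPM against 7.27 and 7.09, and Ntrk2, the receptor of brain-derived neurotrophic factor, 372 and 444 against 155 and 164. Erbb2, a neuregulin co-receptor, was rare in both, at 12.8 and 9.47 against 1.30 and 1.30 CPM. Igf1r and Acvr1 were lower, with log2 differences of -0.40 and -1.08. Among 15 genes of the apical surface, junctions and polarity, 7 were higher and 3 lower. Of all genes 16.4% were higher and 18.8% lower, so that the lower genes of both lists were near the share over all genes. Crb2, an apical polarity protein, had 27.6 and 18.9 CPM against 1.70 and 1.21, and Celsr1, of planar polarity, 116 and 119 against 35.2 and 33.9. Dchs1, an atypical cadherin, was lower at 28.2 and 31.8 against 49.4 and 55.2, and the junction gene Cdh2 did not pass, at 813 and 772 against 671 and 660.1 CPM (adjusted p = 0.219).

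Eph receptors, ephrins and neuroligins are surface proteins through which progenitors and neurons can contact each other. Of 15 such genes 7 were lower and 2 higher, against 18.8 and 16.4% of all genes, and the 2 higher genes were near that share. Epha3, Epha5 and Epha7 were lower, Epha7 at 39.7 and 45.3 CPM against 120.2 and 114. Efnb1, an ephrin of cortical progenitors, was higher at 106 and 103 against 44.7 and 46.9. Epha4 had 344 and 277 CPM in members and 287 and 276 in the rest, and Nlgn1 1348 and 1228 against 1115 and 1139, and neither passed (adjusted p = 0.769 and 0.471). Of Nlgn1 both libraries of members lay above both of the rest, and of Epha4 the lower member library was close to the rest. Of the chromatin enzymes, Dnmt1, the maintenance DNA methyltransferase, was lower at 50.4 and 40.6 CPM against 60.2 and 64.9 (-0.55 ± 0.13, SE, adjusted p of 0.0148), but the call was lost with the thinned gate (-0.23, adjusted p = 0.419) and without members of mixed identity (adjusted p = 0.0761). Dnmt3a, a de novo methyltransferase, was higher at 85.4 and 118 against 59.2 and 54.5, and Dot1l was lower at 30.3 and 28.4 against 41.2 and 39.1. The early response genes Fos and Jun, which papain dissociation is known to switch on, were higher in members, at 49.8 and 50.1 against 12.6 and 5.10 CPM and 256 and 258 against 71.9 and 60.9. Of 10 early response and dissociation genes 3 were higher and 1 was lower, against 16.4 and 18.8% of all genes. Their summed level was 431 and 400 CPM in members and 2479 and 1937 CPM in microglia. Whether dissociation had a part in other genes was not tested.

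The comparison with cycling RGCs asked what separates members from their nearest class, cells under the same gate with at least 1 UMI of Mki67 or Top2a. There were 149 and 170 of these, with a median of 10574 and 9952 UMIs. Of 11357 genes tested, 8.71% were called, 412 (3.63%) as higher and 577 (5.08%) as lower in members. With the library as a block 628 genes were called higher, and with DESeq2 165 were. The stem cell factors Sox2 and Hes1 differed by about their standard error or less. Sox2 stood at 289 and 249 against 323 and 277 CPM (log2 difference -0.16 ± 0.15, SE) and Hes1 at 74.6 and 60.2 against 77.8 and 59.6 (-0.03 ± 0.20, SE). Neither difference passed the test, which does not show that they are equal.

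Several astroglial genes were higher in members than in cycling RGCs. Of 23 tested genes of the radial fibre and astroglial list, 8 were higher and none lower, against 3.63% of all genes, with a median log2 difference of 0.54 beside 0.01 over all genes. With the library as a block 14 were higher, without members of mixed identity 16, and with DESeq2 5. Cells of mixed identity were removed from members only, and cycling RGCs were left as they were. Under that setting 4 of 7 tested excitatory neuron markers were called lower in members, where the main test called none. Apoe, the lipid carrier of astrocytes, had 1384 and 1368 CPM in members and 445 and 304 in cycling RGCs (1.86 ± 0.19, SE, adjusted p of 0.000396), and 132 and 146 members had at least 1 UMI of it. Clu had 184 and 135 against 65.7 and 52.8 CPM, Sparc, a matrix glycoprotein, 393 and 355 against 163 and 160.1, and Cst3, a secreted protease inhibitor, 1059 and 1209.7 against 699.7 and 638. In these 4 genes both libraries of members lay above both of cycling RGCs. The list is not particular to RGCs. Its genes summed to 14064 and 12240 CPM in microglia, 27115 and 29196 in members and 21468 and 19406 in cycling RGCs. Apoe stood at 985 and 132 CPM in cells with 2 gate markers and at 786 and 813 CPM in members with 3. The part of microglia in these differences was not tested. Markers of other classes were also higher in members here: 4 of 6 mural markers with a median log2 difference of 1.55, and both tested markers each of the choroid plexus and of the cortical hem. Mural markers summed to 235 and 165 CPM in members and 27.1 and 99.4 CPM in cycling RGCs. Without high doublet scores 6 of 6 were called, with a median of 5.45, and without members of mixed identity 1 of 3 tested, with a median of -0.28.

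Filament genes and the most abundant radial glia genes differed less. Vim had 1383 and 1520.2 CPM in members and 1229 and 1378 in cycling RGCs, and Nes 145 and 136 against 163 and 180, with adjusted p of 0.518 and 0.209. Fabp7, at 9215 and 11891 against 8099 and 8128 CPM, had a log2 difference of 0.37 ± 0.12 (SE). Its adjusted p of 0.103 became 0.00926 with the library as a block. The same held for Dbi, Ptprz1 and Aldh1l1, with log2 differences of 0.48, 0.37 and 0.78, adjusted p of 0.0745, 0.152 and 0.0944, and with the block 3.12e-05, 0.0114 and 0.0273. With DESeq2 none of Fabp7, Dbi, Ptprz1 and Aldh1l1 was called.

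**Figure D4:**
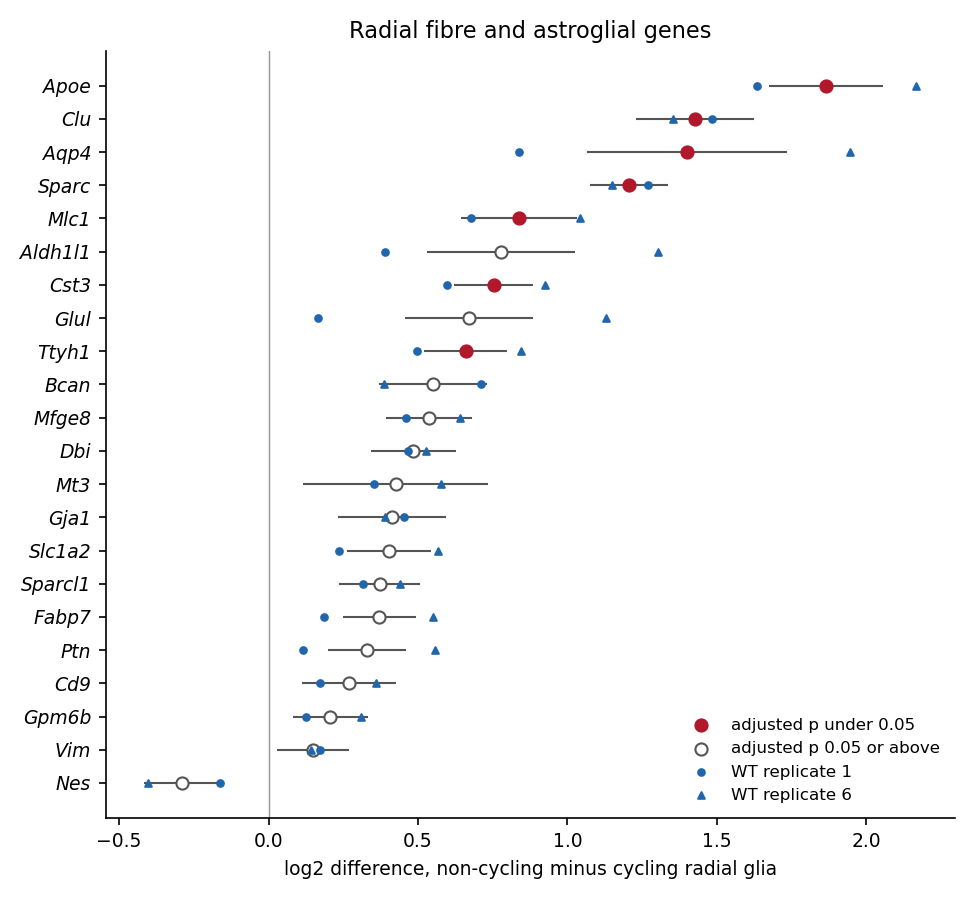
Log2 difference between members and cycling RGCs (x axis) for tested genes of the radial fibre and astroglial list (y axis), with bars of 1 standard error. Large filled points passed an adjusted p of 0.05 and open points did not, and small blue circles and triangles give WT replicates 1 and 6. Apoe lies highest at 1.86 and Nes lowest at -0.29.

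The genes highest in members by size were of several kinds. Lrp1b, a lipoprotein receptor, had 235 and 235 CPM against 47.8 and 36.6 (2.47 ± 0.16, SE). Gstm1, a detoxifying enzyme, had 130.4 and 128 against 42.6 and 38.2, Cpe, a peptide-processing enzyme, 543 and 480.4 against 198 and 152, and Erbb4, a neuregulin receptor, 172 and 134 against 69.7 and 36.6. Ano1 was at 134 and 155 against 47.3 and 51.3 CPM. Rgs6, Tmem47 and Rmst had log2 differences of 1.60, 1.52 and 1.48. Trpm3, at 199 and 144 against 76.7 and 49.2 CPM, rested on 1 cell for 71.3% of its UMIs in replicate 1, and its log2 difference of 1.45 fell to 0.34 without members of mixed identity (adjusted p = 0.528). Ttr, the thyroxine carrier of the choroid plexus, was called as higher but had 6416 UMIs in members of replicate 1, of which 6035 were in 1 cell, and 18 in replicate 6. Fos and Egr1 were higher in members too, Fos at 49.8 and 50.1 against 23.1 and 6.80 CPM.

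Some dorsal factors were lower in members, in a comparison where 5.08% of all genes were lower and 3.63% higher. Of 19 transcription factors tested, 3 were lower and none higher: Pax6 at 128 and 101 against 232 and 174 CPM (adjusted p = 0.0274), Dmrta2 at 28.2 and 25.0 against 50.1 and 47.1, and Tfap2c, a factor of basal progenitor formation, at 41.7 and 42.6 against 64.5 and 71.7. Gli3 had a log2 difference of -0.32 ± 0.14 (SE, adjusted p of 0.216) and passed with the block (adjusted p = 0.0160). Egfr, which marks progenitors responsive to epidermal growth factor, was lower at 63.9 and 103 against 187 and 159.6 CPM, with both libraries of members below both of cycling RGCs. Of 14 Notch genes tested only Notch3 was called, at 76.6 and 73.1 against 43.8 and 35.1 CPM. Hopx, at 111 and 124 against 169 and 128, did not pass (adjusted p = 0.259). Single calls in metabolic and receptor lists were Hmgcs1, Amt and Ntrk2, with adjusted p of 0.0477, 0.039 and 0.0148, while Phgdh stood at 438 and 456 against 375 and 381 CPM.

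Several of these calls depended on the setting. With DESeq2 the calls of Rgs6, Ttr, Dmrta2, Tfap2c, Notch3, Hmgcs1 and Amt were lost, with adjusted p from 0.0769 to 0.361. With the gate applied to thinned cells those of Erbb4, Rmst, Trpm3, Dmrta2, Tfap2c, Egfr, Hmgcs1, Amt, Fos and Dnmt1 were lost, and Egfr differed by -0.63 without replicate 1. Once cells with ventral genes were left out, none of the 19 transcription factors was called, with adjusted p of 0.0817, 0.0619 and 0.108 for Pax6, Dmrta2 and Tfap2c, and with DESeq2 1 was. Apoe, Clu, Sparc, Cst3 and Lrp1b were called with both tools and under every other setting tried.

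Among surface genes of contact with neurons, Ephb1 was higher in members, at 179 and 185 against 95.1 and 67.5 CPM, and so was Epha3, at 344 and 354 against 148 and 244, which fell to a log2 difference of 0.35 without members of mixed identity (adjusted p = 0.332). Epha4 had 344 and 277 CPM against 413 and 358, and Nlgn1 had 1348 and 1228 CPM against 1011 and 901. Their adjusted p of 0.271 and 0.0901 became 0.0360 and 0.000930 with the block, Epha4 lower and Nlgn1 higher in members. Dot1l had 30.3 and 28.4 CPM in members and 30.5 and 26.2 in cycling RGCs, a log2 difference of 0.05 ± 0.22 (SE).

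Cell-cycle genes are described without a test in this comparison, since the gate bears on them. Genes of mitosis were far lower in members than in cycling RGCs but not absent. The 22 genes of G2 and M phase summed to 146 and 130 CPM in members and 4552 and 3610 in cycling RGCs. In non-cycling IPCs they summed to 59.4 and 72.4 CPM and in excitatory neurons to 122 and 118. Aspm, a spindle pole protein, had 3 and 3 UMIs in members and 315 and 245 in cycling RGCs, a ratio of 75.9 in favour of cycling RGCs (counting interval 34.7 to 208). Cenpf, of the kinetochore, had 30.9 and 19.6 CPM in members against 807 and 629.9, and Cdk1, the mitotic kinase, 6.72 and 9.47 against 239 and 187. Kif11, Ccna2, Hmmr, Ccnb1, Knl1 and Cdca8 had log2 differences between -5.69 and -5.22. Genes of DNA replication differed less: Pcna, the sliding clamp, had 79.3 and 88.0 CPM in members and 196 and 171 in cycling RGCs, Mcm3, of the replicative helicase, 57.8 and 67.7 against 105 and 83.7, and Mcm6 60.5 and 60.9 against 76.1 and 85.8. Rrm2, which makes deoxynucleotides, was farther apart at 12.1 and 16.9 against 87.0 and 102. Of the G1 genes, Ccnd3 had 36.3 and 39.9 CPM in members and 20.2 and 20.4 in cycling RGCs, and the inhibitor Cdkn2c 2.69 and 7.44 against 54.8 and 45.0. The median log2 difference was -0.94 over 22 S-phase genes and -4.88 over 22 genes of G2 and M phase.

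The name non-cycling holds for mitosis more than for replication. After thinning to 1500 UMIs, 3 or more of the 22 S-phase genes were seen in 14.3 and 14.8% of members, between the 33.6 and 31.8% of cycling RGCs and the 4.71 and 5.65% of non-cycling IPCs. Excitatory neurons gave 0.979 and 0.880%. Without thinning the share was 52.6 and 52.2% of members, 85.9 and 81.2% of cycling RGCs and 49.0 and 44.9% of non-cycling IPCs. Excitatory neurons had 44.5 and 42.1%, so that the unthinned share does not count cells in replication. For G2 and M-phase genes the thinned shares were 1.71 and 1.10% of members and 53.7 and 47.6% of cycling RGCs. At least 1 of these genes was seen in 18.3 and 19.2% of thinned members and 76.5 and 71.2% of cycling RGCs. Non-cycling IPCs had 8.24 and 9.97% and excitatory neurons 8.92 and 8.38%. Members thus included cells with replication genes and without Mki67 or Top2a, and no phase was assigned to single cells.

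**Figure D5:**
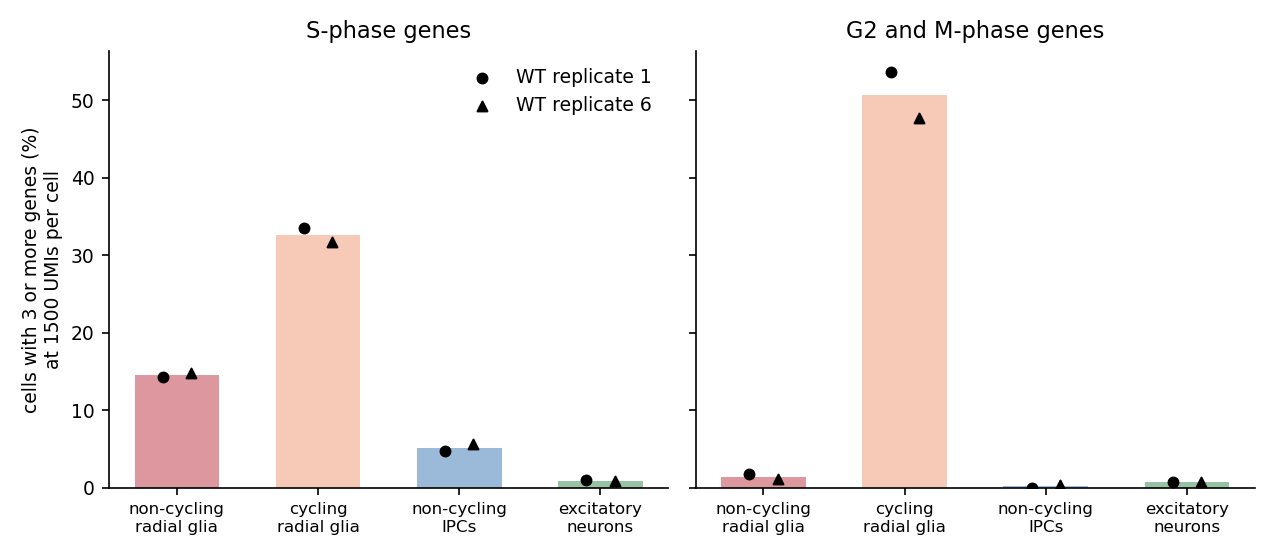
Share of cells (y axis, percent) with at least 3 S-phase genes (left) or G2 and M-phase genes (right) after thinning each cell to 1500 UMIs, in 4 classes (x axis). Bars are means of 2 libraries and the circle and triangle give WT replicates 1 and 6. Members hold S-phase genes in 14.3 and 14.8% of cells and G2 and M-phase genes in 1.71 and 1.10%.

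Dnmt1, which copies DNA methylation during replication, differed between classes and among members. Against cycling RGCs it was lower in members, at 50.4 and 40.6 against 90.5 and 103 CPM (-1.09 ± 0.17, SE, adjusted p of 0.00481). The gate on Mki67 and Top2a bears on Dnmt1 as on the cell-cycle genes, so that this call only describes the gated classes. Members were also split by S-phase genes without thinning. Those with 3 or more had Dnmt1 at 67.9 and 52.5 CPM, and those with fewer had 17.5 and 20.2 CPM, from 9 and 11 UMIs. The first set was also deeper, with a median of 10222 and 9399 UMIs against 5161 and 6185, and the part of depth in the split was not tested.

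The comparison with non-cycling IPCs set members beside the progenitors that follow them in the lineage. These were cells with at least 2 Eomes UMIs, fewer than 3 radial glia markers, and none of Dlx1, Dlx2, Gad2, Pdgfra, Cldn5, Mki67 and Top2a, 255 and 301 in number. Both gates bear on radial glia genes and the IPC gate on genes that go with Eomes, so that the calls describe the gated classes. Of 11749 genes tested, 39.9% were called, 2591 (22.1%) as higher and 2092 (17.8%) as lower in members. Fabp7 had 9215 and 11891 CPM in members and 315 and 371 in IPCs, Apoe 1384 and 1368 against 37.5 and 51.8, and Vim 1383 and 1520.2 against 353 and 338. Of 24 radial fibre and astroglial genes, 23 were higher in members and none was lower, with a median log2 difference of 3.35. Markers of other classes moved the same way: 6 of 6 mural markers (median 3.06), 3 of 3 tested microglial and 2 of 2 tested fibroblast markers were higher in members, as were 6 of 8 early response and dissociation genes (median 2.40). Mural markers summed to 9.37 and 44.8 CPM in IPCs, and without members of mixed identity 1 of the 2 that could be tested was called. The part of these cells in the result was not tested.

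Some glial genes were nearly missing from IPCs. Ano1 had 200 and 229 UMIs in members and 1 in IPCs of each library, a ratio of 382 with a counting interval of 105 to 3164. Mlc1 had 3 UMIs in IPCs of each library, a ratio of 93.8 (42.6 to 257). Rgcc, a regulator of the cell cycle, had 243 and 271 against 4.69 and 6.98 CPM. Pdpn, Clu, Aldh1l1, Ankfn1 and Ccdc80 had log2 differences between 5.06 and 5.65. Ttr, carried by 1 cell in replicate 1, was also called, but its adjusted p was 0.621 with the gate applied to thinned cells.

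The genes lowest in members were those of the neuronal lineage. Neurog2 had 19.5 and 25.0 CPM in members and 391 and 422 in IPCs, and Neurod1, the next proneural factor, 6.72 and 8.80 against 203 and 169.8. Slc17a6, a vesicular glutamate transporter, had 8.74 and 10.1 against 297 and 300 CPM. Plcb1, a phospholipase gene, was at 122 and 141 against 2371 and 2395 CPM, and Sstr2, a somatostatin receptor gene, at 7.40 and 6.77 against 128 and 135. Synpr, Ust and Mfng had log2 differences of -4.69, -4.57 and -4.48. Of the 7 tested IPC markers all were lower in members, where 17.8% of all genes were, and the gates on Eomes bear on them. The neuronal gene Stmn2 stood at 278 and 332 against 329 and 347 CPM, not called (adjusted p = 0.194) but called as lower in members with the block (adjusted p = 0.0453).

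Transcription factors divided between the classes, with 9 of 19 higher and 6 lower in members, against 22.1 and 17.8% of all genes. Sox2, Gli3 and Hes1 were higher, Hes1 at 74.6 and 60.2 against 2.73 and 1.47 CPM. Emx1 and Lhx2 were lower, Lhx2 at 156 and 162 against 414 and 397. Pax6 did not pass, at 128 and 101 against 109 and 89.7 CPM, and differed by 0.15 ± 0.15 (SE) on the log2 scale (adjusted p = 0.475). Of 15 Notch genes, 10 were higher and 5 lower. The receptors Notch1, Notch2 and Notch3 were higher, Notch2 at 276 and 269 against 14.1 and 17.3, and the ligand Dll1, at 6.05 and 7.44 against 12.1 and 14.7, was lower, as were Rbpj, Mfng, Dll3 and Hes6. The call of Dll1, which rested on 9 and 11 UMIs in members, was lost with DESeq2 (adjusted p = 0.289).

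Other groups were read in the same way, beside 22.1% of all genes higher and 17.8% lower. All 16 cholesterol genes were higher in members, with Hmgcs1 at 499 and 581 against 88.7 and 98.9 CPM, and 7 of 10 tested genes of serine, glycine and one-carbon metabolism were, with Phgdh at 438 and 456 against 23.4 and 29.8 and Psat1 at 127 and 137 against 8.20 and 9.19. Receptor genes were mostly higher, 11 of 15 with 1 lower, among them Fgfr3, Ntrk2 and the receptor of bone morphogenetic proteins Bmpr1b, at 189.6 and 169 against 23.0 and 18.7. Of 8 tested outer radial glia genes 7 were higher, Ptprz1 at 2898 and 2973 against 204 and 164 and Hopx at 111 and 124 against 12.9 and 12.9. Nfib and Nfix were lower, with log2 differences of -0.94 and -1.43. Nfia and Zbtb20 did not pass (adjusted p = 0.233 and 0.0519) and did with the block (0.0159 and 1.06e-05), Nfia as lower and Zbtb20 as higher.

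Among 15 polarity genes 3 were higher, such as Crb2 at 27.6 and 18.9 against 2.34 and 0.735 CPM, and 4 were lower, such as Celsr1 at 116 and 119 against 155 and 153, shares near the 22.1 and 17.8% of all genes. Celsr1 lost its call with DESeq2 (adjusted p = 0.139) and without members of mixed identity (0.0953). Of 15 Eph, ephrin and neuroligin genes, 5 were higher and 6 lower, against 22.1 and 17.8% of all genes, and with DESeq2 3 were higher and 4 lower. Epha3, Epha4 and Epha7 were lower, Epha4 at 344 and 277 against 538 and 546 CPM (-0.86 ± 0.13, SE, adjusted p of 0.000279), whereas Ephb1 was higher at 179 and 185 against 69.1 and 64.0. Nlgn1 had 1348 and 1228 against 1042 and 973 CPM. It differed by 0.29 ± 0.12 (SE) on the log2 scale, and its adjusted p of 0.0688 became 8.61e-05 with the block, but it was not called with DESeq2. Dnmt1 did not pass, at 50.4 and 40.6 against 37.5 and 43.0, Dnmt3a was higher at 85.4 and 118 against 37.9 and 39.7, and Dot1l was lower at 30.3 and 28.4 against 48.4 and 38.2 CPM (adjusted p = 0.0255, and 0.252 with DESeq2). Fos and Jun were higher, Jun at 256 and 258 against 35.9 and 27.6.

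Replication genes separated members from IPCs although neither class held Mki67 or Top2a. Of 20 S-phase genes tested, 12 were higher in members and none was lower, against 22.1 and 17.8% of all genes. Their median log2 difference was 0.77, and with DESeq2 8 were higher. Of 9 G2 and M-phase genes tested, 4 were higher and none was lower, with a median of 1.07, and with DESeq2 1 was higher. Mcm3 stood at 57.8 and 67.7 CPM in members and 13.3 and 16.5 in IPCs (2.01 ± 0.20, SE, adjusted p of 6.19e-06) and Pcna at 79.3 and 88.0 against 43.7 and 53.7. Ccnd1, the cyclin of G1 entry, was higher in members at 76.6 and 78.5 against 19.5 and 18.7. The kinase gene Cdk4 and the inhibitors Cdkn1b and Cdkn1c were lower in members, Cdkn1b at 137 and 145 against 241 and 258 CPM and Cdkn1c at 28.9 and 43.3 against 83.6 and 80.5. Of the 13 genes of G1 control tested, 4 were higher and 5 lower, against 22.1 and 17.8% of all genes.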

How the data were processed

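Cells of the dorsal telencephalon of WT mouse embryos at E16.5 were profiled with 10x Genomics single cell 3' chemistry (version 3.1). The deposited values were raw UMI counts per gene and barcode, made by the authors with Cell Ranger 7.0.0 on mm10 per the labels and file headers. The annotation and whether intronic reads were counted are not given in the sources used here, and counts of genes that overlap or resemble another gene are uncertain to that extent. The gate, the members and the gene lists were chosen with earlier results of these data known.

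Cells with 1500 to 60000 UMIs and under 10% mt- UMIs were kept. Non-cycling IPCs were gated as described above. Excitatory neurons (at least 2 Neurod6 UMIs) and microglia served as background classes. Neurons also needed a Neurod2 UMI and none of Eomes, Dlx1 and Gad2. Microglia needed UMIs of at least 3 of C1qa, C1qb, C1qc, Cx3cr1, P2ry12 and Csf1r. Both classes had fewer than 3 radial glia markers, so that their gates bear on radial glia genes. UMIs were summed per library and class, and edgeR 4.0.16 (R 4.3.3) was run with TMM scaling, filterByExpr, the quasi-likelihood test and p-values adjusted after Benjamini and Hochberg over every gene in the test. The 14 gate genes were left out. Error terms of log2 differences are standard errors of that fit. CPM were computed from the summed counts. Thinning drew 1500 UMIs per cell without replacement. Doublets were scored by simulation (Scrublet method, rate of 0.8% per 1000 barcodes) and left in except in one alternative. Counting intervals of ratios and shares are exact at the 95% level.

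Alternatives were no TMM scaling, DESeq2 1.42.0, no filter on low counts, the library as a replicate block, at least 4 markers, a gate on cells thinned to 1500 UMIs, 3000 to 30000 UMIs with under 5% mt- UMIs, no high doublet scores, exclusion of cells with Gsx2, Nkx2-1, Gad1, Dlx5 or Dlx6os1, and each library left out. Removal of members with at least 50% of the markers of another class was added after seeing the data. It applied to members only, and cycling RGCs and IPCs were not filtered in the same way. Each library gave a sum to either class, so that the libraries pair the sums. Deviations of same-library sums correlated with r of 0.10, 0.20 and 0.19 against the rest, cycling RGCs and IPCs, with 1 pair of sums per library. On simulated counts the fit recovered 66.0% of genes changed by log2 1 and 96.0% by log2 2 against the rest (18205 genes), 53.1 and 94.8% against cycling RGCs, and 64.0 and 97.0% against IPCs. False calls numbered 0, 6 and 3. Changed genes were drawn from those above a minimum expected count in every sum, with the same spread for all genes and no pairing. The recovery therefore does not cover genes of few UMIs.

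Genes were named by rule. Per comparison these were the 12 highest and 8 lowest log2 differences among called genes of at least 100 CPM with the same sign in both libraries, without predicted, mitochondrial and ribosomal genes, and from each list the most abundant members and the largest differences, with any member a statement turns on. A few genes that met the rule are not reported here. Promoter windows came from RefSeq tables on GRCm38.p6, and the sequence was matched by symbol. Statistics used Python 3.11.15 with scipy 1.17.1 and scikit-learn 1.9.0.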

Additional observations from a re-analysis of the deposited data

How the results depend on the processing

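The 2 libraries give each class 2 sums, depth per gene is low, and the comparisons rest on cells gated by detection, a step that depends on depth. Of 644 and 642 cells with at least 3 markers, 324 and 352 held none of the excluded genes. Of 218 named differences, 2177 values under alternatives were computed: 2050 kept direction and call, 61 lost the call, 54 gained it and 12 changed sign. The cause of these changes was not tested. The mean share of members, 2.18%, was 1.60% with at least 4 markers, 1.70% with the thinned gate, 2.40% under the stricter cell filter, 1.87% without cells with ventral genes and 1.82% without members of mixed identity, and ranged from 2.15 to 2.22% with 1 library left out. The thinned gate took 278 cells, of which 185 were members, 51.8% of members and 66.5% of that gate. Thinning also hides UMIs of the excluded genes, so that cells with such a UMI at full depth can enter. Under this gate there were 50 and 58 cycling RGCs and 113 and 118 non-cycling IPCs. The part of either change in the lost calls was not tested.

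Against the rest the count of 6426 called genes stayed within 1.5 times under every alternative fitted. Against cycling RGCs, DESeq2 called 513 genes in place of 989, 165 higher and 348 lower. The count of higher genes was 227 without the filter on low counts, 628 with the replicate block and 701 without high doublet scores, in place of 412. Against IPCs, DESeq2 called 2696 genes in place of 4683, 1670 higher and 1026 lower, and the thinned gate called 3070, with 1306 lower.

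Signs changed in the following differences, none of them called by the main test except Gsx2, Rspo2 and Lmx1a. Against the rest, Lhx2 was 0.056 without TMM scaling and 0.048 with at least 4 markers, Rspo2 and Lmx1a were -0.82 and -1.75 with the thinned gate, and Gsx2 was -9.61 where cells with Gsx2 were left out by construction. Against cycling RGCs, Sox2 was 0.061 and Hes1 0.18 without members of mixed identity, Hes1 was 0.012 with at least 4 markers and 0.035 without ventral genes, and Dot1l was -0.26 under the stricter cell filter. Against IPCs, Pax6 was -0.12 and Stmn2 0.18 with the thinned gate. With the library as a replicate block, no called gene named here lost its call, and the calls it added stand beside the results. It added 12 calls, and of these DESeq2 gave only that of Nfib against the rest. With 4 sums in a comparison the block leaves 1 degree of freedom for error. Its p-values therefore rest largely on the spread shared across genes. With 1 library left out there is 1 sum per class and no test. Of 436 such values, 292 stayed within the spread between libraries and 144 moved farther, 5 changed sign, none of them of a called difference, and 9 of called differences moved by over 1.5 times. Without replicate 1 these were Hes6 (-0.46) against the rest, Ttr (5.37), Egfr (-0.63), Epha3 (0.54) and Fos (2.83) against cycling RGCs, and Ttr (5.68) against IPCs. Without replicate 6 they were Dnmt1 (-0.26) against the rest, and Fos (1.10) and Rspo2 (5.71) against cycling RGCs.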
